A study of Mus musculus with 10 samples.

Results

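Notch1, Notch2, Notch3, Dll1, Dll3, Jag1, Jag2, Hes1, Hes6 and Hey1 were followed through 10 RNA-seq libraries from 5 cell lines of mouse small cell lung cancer (SCLC). These are receptors, ligands and transcription factors of the Notch pathway, taken by gene symbol: 10 of 10 were found among the 24391 genes listed. SCLC is a neuroendocrine lung tumour. The lines, named G9577, G4314, G9351, G9488 and G9529, were derived from mouse tumours and share the genotype label Rb;p53,TRE-MYCN, LSL-RTTA. That is, alterations of the Rb and p53 genes, a MYCN transgene that a tetracycline-responsive (TRE) promoter drives, and rtTA, which activates that promoter when doxycycline is present, behind a stop cassette that Cre removes; the Cre driver, the age of the mice and whether a line is a single clone are not given in the sources used here. Each line was sequenced as 1 library of cells on doxycycline (MYCN on) and 1 of cells kept off the drug for 4 days (MYCN off). No line lacked the transgene, so an effect of doxycycline by itself cannot be told apart from that of MYCN. Each line and condition is 1 library, so the spread behind every test is the spread between lines.

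In the Notch pathway a ligand on one cell binds a receptor on its neighbour, the receptor is cut, and its freed inner part enters the nucleus. There it joins the DNA-binding protein RBPJ and switches on repressors such as HES1 and HEY1. In the lung, Notch signalling is known to hold down the neuroendocrine fate, in part through HES1, while neuroendocrine cells and SCLC carry the ligands DLL1 and DLL3. HES6 differs from its relatives: it works against HES1 and is not a standard target of Notch.

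The libraries held 9586465 to 11960074 counts with MYCN on and 9928420 to 11123998 with MYCN off. Levels are CPM scaled with TMM factors, relative to the total over genes that passed the count filter for MYCN on against off. Those genes held 98.1% and 93.9% of the counts in G9577 with MYCN on and off, and at least 99.5% elsewhere. Lists of 4 values give G4314, G9351, G9488 and G9529 in that order. Mycn stood at 977 CPM in G9577 and 538, 496, 884 and 791 CPM in the other lines with MYCN on. With MYCN off it stood at 85.9 CPM in G9577 and 177, 27.6, 189 and 110 CPM in the others. All 5 lines had more Mycn with doxycycline, and the fitted log2 change was 2.86 (SE 0.38, adjusted p = 0.00421 in edgeR's quasi-likelihood test). Myc, its relative, was lower in all 5 lines, with a log2 change of -2.64 (SE 0.3, adjusted p = 0.00339 in the same test).

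Both libraries of G9577 stood apart from those of the other lines, with low neuroendocrine and high mesenchymal marker sums. The summed level of 13 neuroendocrine markers was 224 CPM with MYCN on, and 185 with MYCN off in G9577. It was 3440 to 4190 CPM with MYCN on, and 5530 to 7650 with MYCN off in the other 4 lines. Most of the sum in G9577 was Uchl1 (118 CPM with MYCN on, 17.3 with MYCN off) and Ncam1 (99.8 and 125 CPM). The other lines had at least 584 CPM of Uchl1 and 198 CPM of Ncam1. Scg2 was at 0 counts in the MYCN-on library of G9577 and at 10.2 CPM in its MYCN-off library. Resp18 was at 0 in the MYCN-on library of G9577, but also in that of G9488. The sum of 12 mesenchymal markers was 4830 CPM with MYCN on, and 20300 with MYCN off in G9577, where Thy1 was at 0, against 58.1 to 191 and 55.8 to 150 CPM in the others. The sum of 7 lung epithelial markers was 7.36 and 72.9 CPM in G9577, against 1170 to 1480 and 1460 to 1900 CPM in the others. There it was nearly all Epcam and Cdh1, general epithelial genes. Scgb1a1 and Krt5 had at most 1 count in any library, and Sftpb, a surfactant gene, had 39.4 CPM in the MYCN-off library of G9577 and at most 0.685 CPM elsewhere. Endothelial markers, 5 genes, summed to 35.7 and 133 CPM in G9577 and to 0.837 to 4.21 and 1.47 to 11.1 CPM elsewhere; nearly all of it in G9577 was Kdr, while Cdh5 and Emcn were at 0 and Pecam1 was at 0.28 and 0.557 CPM. Leukocyte markers, 6 genes, summed to 3.73 and 61.3 CPM in G9577 and to 4.05 to 6.27 and 2.08 to 6.45 CPM elsewhere, with Ptprc and Cd3e at 0 in G9577 and 55.0 CPM of Lyz2 in its MYCN-off library. From these counts a line of another character and a mislabelled culture cannot be told apart. The part of cell identity in the values of G9577 below was not tested, and in bulk RNA fewer cells of a type and less RNA per cell cannot be told apart. The change of each of the 10 genes with MYCN on is therefore given with and without G9577.

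The 10 genes showed 2 patterns. G9577 had more Notch1, Notch2, Hes1 and Hey1 transcript and far less Dll1, Dll3, Jag2 and Hes6 than the other lines. With MYCN on against off, none of the genes passed the threshold over the 5 lines. In edgeR's quasi-likelihood test 0 of 10 had an adjusted p under 0.05, while 31.0% of all 12835 genes tested did. At an unadjusted p under 0.05 there were 2, Notch1 and Hes6, beside 5800 of all 12835 genes. DESeq2 called these 2, beside 5280 of all 12835 genes. The limma-voom fit called 1, Notch1, beside 4467 of all 12835 genes. The median log2 change of the 10 genes was 0.08, beside -0.08 for all genes tested. Without G9577 the same fit called 1 of 10, Notch2, which was higher, with 34.8% of 12925 genes called (17.4% higher and 17.4% lower). The response of G9577 differed from the mean response of the other 4 lines for 5 of 10 genes (Notch2, Notch3, Jag2, Hes6 and Hey1), against 7.0% of all genes. In that test G9577 is 1 pair of libraries and is assumed to vary as the other 4 lines do.

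**Figure D1:**
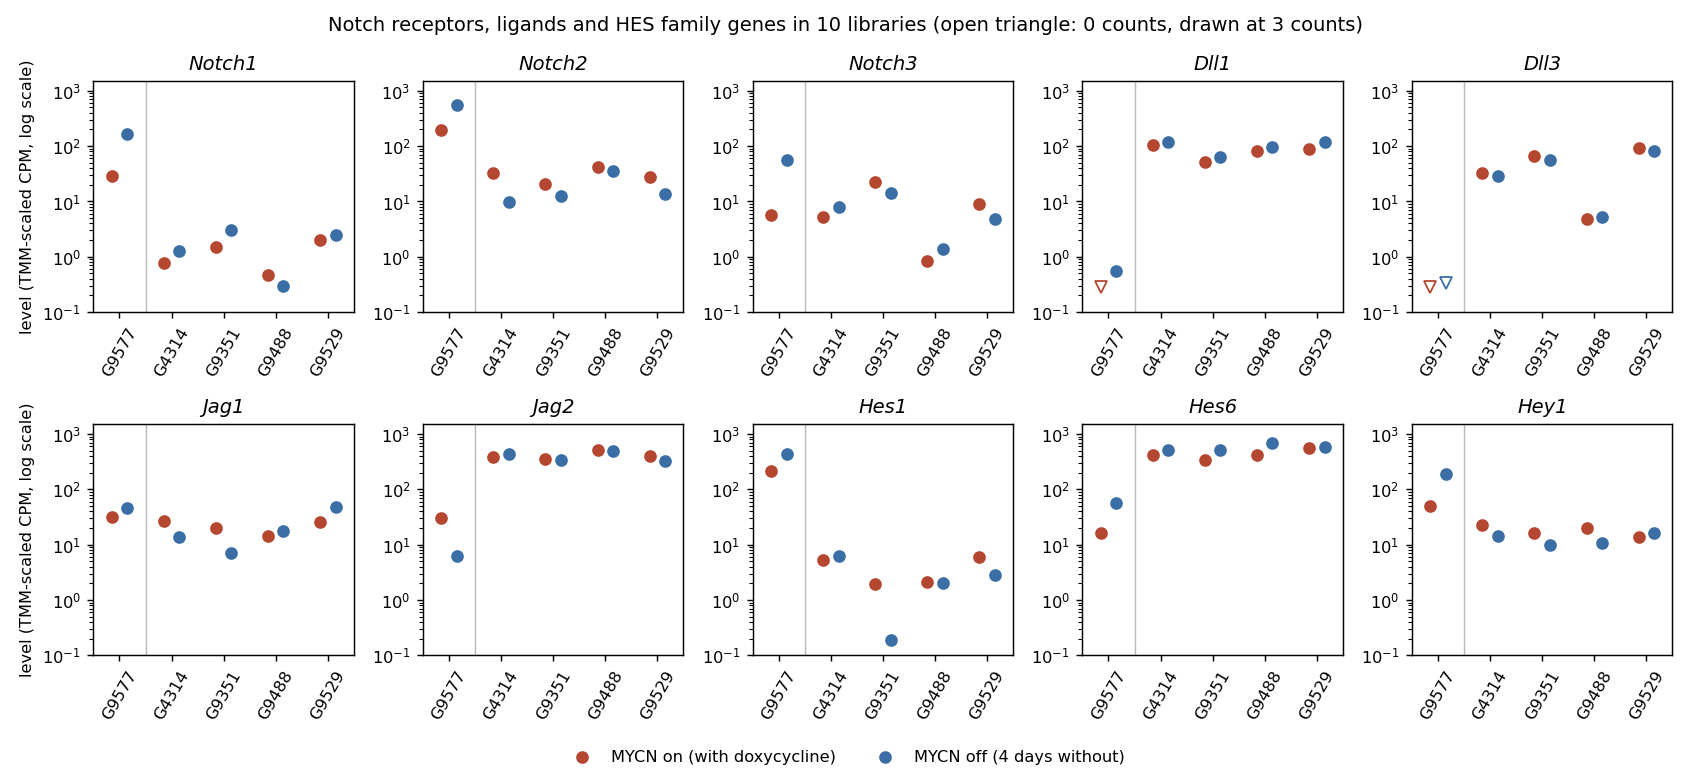
Levels of the 10 genes (TMM-scaled CPM, log axis) in each library, with G9577 left of the grey line and the other 4 lines right of it; red points are MYCN on, blue points MYCN off, and an open triangle marks 0 counts, drawn at the level of 3 counts. Both G9577 points lie above all others for Notch1, Notch2, Hes1 and Hey1 and below all others for Dll1, Dll3, Jag2 and Hes6.

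Notch1 (mm9 chr2:26313422-26359342, minus strand) and Notch2 (mm9 chr3:97817461-97954290, plus strand) encode the widely expressed receptors. With MYCN on, Notch1 had 29.1 CPM in G9577, against 0.784, 1.48, 0.465 and 2.0 CPM in the other lines. In the MYCN-off libraries it had 169 CPM in G9577, against 1.27, 3.0, 0.293 and 2.47 CPM. The 8 libraries of the other lines thus held at most 3.0 CPM of Notch1, and both G9577 libraries lay above them. Summed per line, Notch1 was higher in G9577 by 5.85 on the log2 scale (SE 0.81, 57.8-fold, adjusted p = 0.0105). This p, like all those for G9577 against the others, comes from edgeR's quasi-likelihood test on 5 line sums, in which G9577 is 1 line and is assumed to vary as the other 4 do. With MYCN on against off, Notch1 had a log2 change of -1.10 over 5 lines (SE 0.44, adjusted p = 0.0954 in edgeR's test), lower in 4 of 5 lines. G9577 carried most of it: the line's own change was -2.53, and without it the fitted change was -0.47 (adjusted p = 0.338). The difference in response, -2.03 (SE 0.49), missed the threshold (adjusted p = 0.0549 in edgeR's interaction test).

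Per kilobase of exon, Notch2 was the most abundant of Notch1, Notch2 and Notch3 in every library but 3, both of G9351 and the MYCN-off library of G4314, where Notch3 was ahead. Notch4, outside the 10 genes, was above all 3 of them in 5 libraries: both of G4314 (3.28 and 9.37 CPM per kilobase with MYCN on and off), both of G9529 (3.27 and 5.48) and the MYCN-off library of G9351 (6.44). With MYCN on, Notch2 had 199 CPM in G9577, against 32.8, 21.1, 41.1 and 27.6 CPM in the other lines. Off doxycycline it had 557 CPM in G9577, against 9.87, 12.3, 35.8 and 13.7 CPM. In G9577 the MYCN-off library was the higher one, whereas in each of the other 4 lines the MYCN-on library was. The changes were -1.49 in G9577 and 1.71, 0.77, 0.20 and 0.99 in the others on the log2 scale. Over the 4 lines without G9577, Notch2 was higher with MYCN on than off by 0.93 (SE 0.26, 1.9-fold, adjusted p = 0.0301 in edgeR's quasi-likelihood test). Over all 5 lines the change was 0.45 (SE 0.43, adjusted p = 0.445), and the difference in response was -2.40 (SE 0.51, adjusted p = 0.0408 in the interaction test). That call was lost without G9351, G9488 or G9529 (adjusted p = 0.0996, 0.0579 and 0.0798) and with scaling by library size only (adjusted p = 0.0512). Between lines Notch2 was higher in G9577 by 3.80 (SE 0.42, 13.9-fold, adjusted p = 0.00574).

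Notch3 (mm9 chr17:32257838-32303797, minus strand), a receptor best known from vascular smooth muscle, did not separate the lines. It had 5.59 CPM in G9577 with MYCN on, within the 5.29, 22.5, 0.837 and 8.93 CPM of the other lines. Once MYCN was off, the level was 57.2 CPM in G9577, against 7.79, 14.0, 1.37 and 4.76 CPM. The MYCN-off library of G9577 was the single high one. G9488 had the least Notch3 in both conditions. The response of G9577 differed from that of the others by -3.56 (SE 0.71, adjusted p = 0.0362 in edgeR's interaction test), a call lost without G9351, G9488 or G9529 (adjusted p = 0.1, 0.0707 and 0.0663). Over 5 lines the change with MYCN on was -0.50 (SE 0.64, adjusted p = 0.568), and without G9577 it was 0.21 (adjusted p = 0.653). Between lines the difference was 1.72 (SE 1.17, adjusted p = 0.347 in edgeR's quasi-likelihood test), and it was 2.5 without G9351.

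Per kilobase of exon, the 3 receptors together stood at 22.7 CPM per kilobase with MYCN on and 78.1 with MYCN off in G9577. They stood at 3.87, 5.0, 4.06 and 3.96 with MYCN on and at 2.05, 3.24, 3.61 and 2.17 with MYCN off in the other lines. The summed level of the 4 ligands ran the other way, at 13.1 with MYCN on and 10.2 with MYCN off in G9577. It was 146, 135, 156 and 171 with MYCN on and 156, 129, 153 and 163 with MYCN off in the others. The 4 lines thus held more transcript of these 4 ligands than of these 3 receptors, by more than an order of magnitude, and in G9577 the receptors were ahead.

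**Figure D2:**
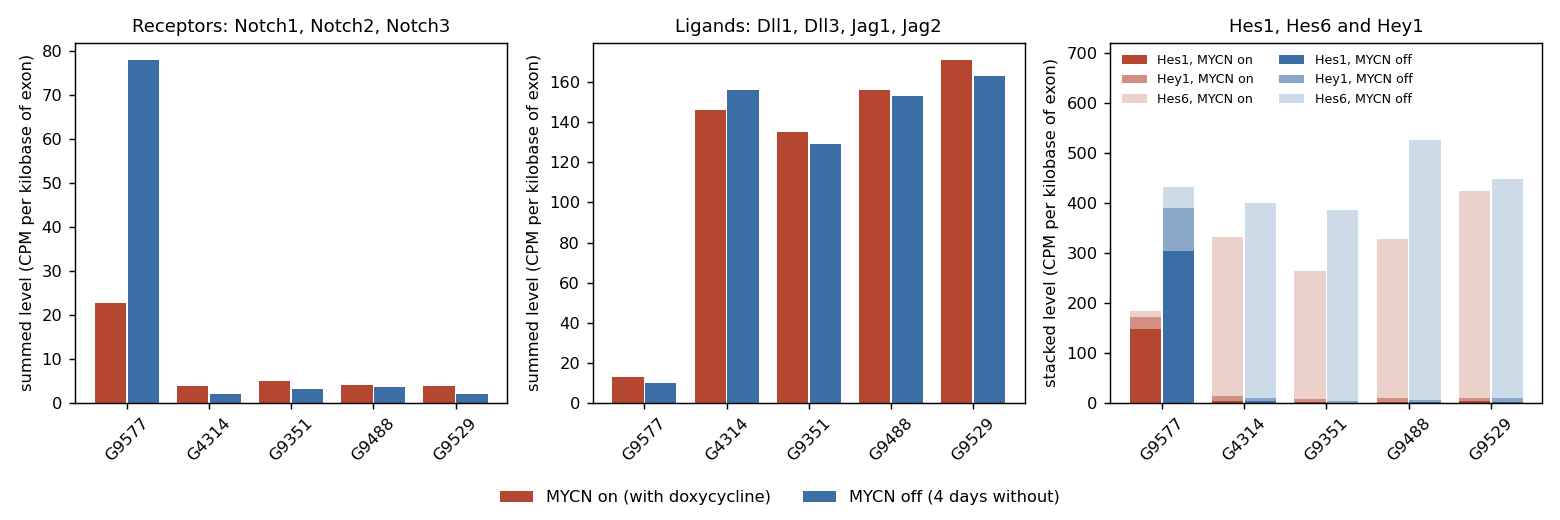
Summed levels (CPM per kilobase of exon) of the 3 receptors, the 4 ligands, and Hes1, Hey1 and Hes6 stacked, in each line with MYCN on (red, left bar) and MYCN off (blue, right bar). The receptor bars of G9577 reach 22.7 and 78.1 while no other line exceeds 5.0; its ligand bars are 13.1 and 10.2 while the others run from 129 to 171; its stack is mostly Hes1 where the others are almost all Hes6.

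Dll1 and Dll3 are delta-type ligands, DLL1 an activator of receptors on the next cell and DLL3 a divergent member that stays mostly inside the cell and holds back Notch in the cell that makes it; its appearance on the surface of SCLC cells has made it a drug target. Both genes, like Hes6 and Jag2, were lower in both G9577 libraries than in all 8 libraries of the lines with neuroendocrine markers. For Dll1, Dll3 and Hes6 a promoter that holds the motif marked below is shown, so the choice rests on that motif. RefSeq promoters of 300 bases (GRCm38.p6, from 250 bases before the transcription start to 50 after it) were matched by symbol for 8 of the 10 genes, as 10 promoters; Hes1 and Hey1 were not matched. Capitals mark CAGCTG, a palindromic E-box, the kind of site that basic helix-loop-helix factors bind. Each is written 5′ to 3′ on the strand of the gene:
Dll1, second promoter, chr17:15376883-15377182, minus strand: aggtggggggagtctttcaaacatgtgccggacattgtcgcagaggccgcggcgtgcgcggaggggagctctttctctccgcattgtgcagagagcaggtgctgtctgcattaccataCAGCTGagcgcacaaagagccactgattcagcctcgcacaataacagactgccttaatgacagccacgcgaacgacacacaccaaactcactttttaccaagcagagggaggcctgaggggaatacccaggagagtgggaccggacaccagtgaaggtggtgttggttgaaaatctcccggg
Dll3, chr7:28301736-28302035, minus strand: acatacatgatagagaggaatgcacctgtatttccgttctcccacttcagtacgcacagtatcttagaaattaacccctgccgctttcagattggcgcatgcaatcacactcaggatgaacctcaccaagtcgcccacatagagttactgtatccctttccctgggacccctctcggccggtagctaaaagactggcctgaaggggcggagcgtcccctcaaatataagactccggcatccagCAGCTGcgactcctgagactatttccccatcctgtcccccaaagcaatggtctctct
Hes6, second promoter, chr1:91413173-91413472, minus strand: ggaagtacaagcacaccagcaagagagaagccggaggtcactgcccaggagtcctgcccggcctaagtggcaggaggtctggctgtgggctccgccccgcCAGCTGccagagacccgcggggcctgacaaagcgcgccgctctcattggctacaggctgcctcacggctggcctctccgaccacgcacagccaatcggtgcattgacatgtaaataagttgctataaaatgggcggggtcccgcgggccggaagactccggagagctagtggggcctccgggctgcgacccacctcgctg
The E-box begins 132 bases before the start of Dll1, 7 before that of Dll3 and 150 before that of Hes6. The first of the 2 Dll1 promoters had none, and both Hes6 promoters had it. It stood in 5 of the 10 promoters, of 4 genes, and in 16.3% of all 32851 promoters in the RefSeq table. The fourth gene was Jag1, whose level did not separate the lines, and the Jag2 promoter, of a gene low in G9577, had none. The E-box CACGTG, which MYC proteins bind, was in 0 of the 10 promoters and in 7.15% of all. The core of the RBPJ motif, TGGGAA or on the other strand TTCCCA, was in 0 of the 10 and in 25.6% of all. Both strands were searched, no matches overlapped since CAGCTG alone was found, and a match is a description of these letters only.

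Dll1 (mm9 chr17:15504318-15512787, minus strand) was at 0 counts in the MYCN-on library of G9577 and at 5 counts, or 0.557 CPM, in its MYCN-off library. The other lines had 103, 51.7, 82.8 and 88.8 CPM with MYCN on, and 118, 64.9, 94.7 and 120 with MYCN off. All 8 of these libraries lay far above both of G9577, with a fitted difference between lines of -8.56 (SE 0.69, adjusted p = 0.0025 in edgeR's quasi-likelihood test). A count of 0 allows up to 3 counts, or 0.28 CPM, in the MYCN-on library of G9577, so Dll1 was at least 185-fold lower there than in the lowest other line. With MYCN on, Dll1 was lower in all 4 other lines, by small amounts (-0.19, -0.33, -0.19 and -0.44 on the log2 scale), and missed the threshold with a fitted change of -0.28 over those lines (adjusted p = 0.0813). Over 5 lines it was -0.38 (SE 0.26, adjusted p = 0.285).

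Dll3 (mm9 chr7:29078574-29086804, minus strand) was at 0 counts in both libraries of G9577. With MYCN on, it had 32.8, 66.1, 4.74 and 93.8 CPM in the other lines. Without doxycycline it had 29.2, 56.1, 5.28 and 81.1 CPM there. The 4 lines kept the same order of Dll3 levels in both conditions, G9488 lowest and G9529 highest, and the 2 libraries of a line were closer to each other than to any other line. Against the 3 counts that 0 allows, Dll3 in G9577 was at least 16.9-fold lower than in the lowest other line with MYCN on and at least 15.8-fold lower with MYCN off. The test between lines missed the threshold (adjusted p = 0.0518 in edgeR's quasi-likelihood test). With MYCN on the log2 change was 0.13 over the 5 lines (SE 0.16, adjusted p = 0.569), and without G9577 it was 0.15 (SE 0.13, adjusted p = 0.396).

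Jag1 (mm9 chr2:136907187-136942256, minus strand) and Jag2 (mm9 chr12:114146801-114167706, minus strand) encode the jagged-type ligands. Jag1 had 31.4 CPM in G9577 with MYCN on and 46.9 with MYCN off. The other lines had 26.8, 19.9, 14.3 and 25.2 CPM with MYCN on, and 13.8, 7.03, 17.3 and 47.5 with MYCN off. G9577 overlapped them, and the difference between lines was 0.73 (SE 0.6, adjusted p = 0.43 in edgeR's test). The lines also moved in both directions with MYCN on, G4314 and G9351 up by 0.95 and 1.48 and G9488, G9529 and G9577 down by 0.27, 0.91 and 0.57 on the log2 scale, which left a fitted change of 0.11 (SE 0.38, adjusted p = 0.838), or 0.30 without G9577 (SE 0.4, adjusted p = 0.575).

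Among Dll1, Dll3, Jag1 and Jag2, Jag2 had the highest level in the 4 lines, at 101 CPM per kilobase with MYCN on and 97.4 with MYCN off on average, against 23.8 and 29.0 for Dll1. It had 29.9 CPM in G9577 with MYCN on, against 387, 346, 515 and 394 CPM in the other lines. In the MYCN-off libraries it had 6.23 CPM in G9577, against 427, 336, 485 and 330 CPM. The level was steady across the 4 lines and conditions, within 330 to 515 CPM, and both G9577 libraries lay below it. Between lines Jag2 was lower in G9577 by a log2 difference of -4.51 (SE 0.37, 22.7-fold, adjusted p = 0.00267 in edgeR's test). It was also the one of the 10 genes whose response in G9577 was more positive than elsewhere: its change with MYCN on was 2.23 there and -0.14, 0.04, 0.09 and 0.26 in the others. That difference was 2.20 (SE 0.27, adjusted p = 0.0145 in edgeR's interaction test), and 1.62% of all genes were called in this direction. It was lost without G9351 (2.23, adjusted p = 0.0643). The fitted change with MYCN on was 0.42 over 5 lines (SE 0.33, adjusted p = 0.346) and 0.07 without G9577 (SE 0.11, adjusted p = 0.634).

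Hes1 (mm9 chr16:30065443-30067882, plus strand), the repressor that is the standard readout of Notch signalling, had 216 CPM in G9577 with MYCN on, against 5.39, 1.97, 2.14 and 5.99 CPM in the other lines. Off doxycycline it had 439 CPM in G9577, against 6.34, 0.187, 2.05 and 2.82 CPM. No library of the other lines exceeded 6.34 CPM. Between lines Hes1 was higher in G9577 by 6.46 on the log2 scale (SE 0.75, 87.9-fold, adjusted p = 0.00664 in edgeR's test), the largest positive difference among the 10 genes. With MYCN on the log2 change was 0.20 over 5 lines (SE 0.46, adjusted p = 0.754). That value mixed -1.03 in G9577 and -0.23, 2.52, 0.05 and 1.04 in the others, and the 2.52 of G9351 rests on 20 counts with MYCN on and 2 with MYCN off. Without G9351 the fitted change was -0.12, and without G9577 it was 0.73 (SE 0.5, adjusted p = 0.28). The response of G9577 differed by -1.63 (SE 0.72) and missed the threshold (adjusted p = 0.192).

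Hey1 (mm9 chr3:8663359-8667038, minus strand), the second Notch-activated repressor, had 50.9 CPM in G9577 with MYCN on, against 22.9, 16.5, 19.8 and 14.0 CPM in the other lines. Once MYCN was off, the level was 192 CPM in G9577, against 14.6, 9.75, 10.8 and 16.2 CPM. Both G9577 libraries lay above the other 8, by a wider margin with MYCN off. Between lines Hey1 was higher in G9577 by 2.78 (SE 0.26, 6.87-fold, adjusted p = 0.00368 in edgeR's test). The change with MYCN on was -1.91 in G9577 and 0.65, 0.75, 0.87 and -0.21 in the others. The responses differed by -2.43 (SE 0.45, adjusted p = 0.0326 in edgeR's interaction test), a call lost without G9351 or G9488 (adjusted p = 0.0907 and 0.0786). Over 5 lines the change was 0.05 (SE 0.42, adjusted p = 0.935), and over the 4 lines without G9577 it was 0.53 (adjusted p = 0.108).

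Hes6 (mm9 chr1:93308060-93309799, minus strand), the HES1 antagonist, had the highest level of the 10 genes per kilobase in the 4 lines, averaging 326 CPM per kilobase with MYCN on and 432 with MYCN off. It had 16 CPM in G9577 with MYCN on, against 423, 341, 425 and 552 CPM in the other lines. Without doxycycline it had 56.3 CPM in G9577, against 518, 509, 694 and 584 CPM. Between lines Hes6 was lower in G9577 by a log2 difference of -3.99 (SE 0.33, 15.9-fold, adjusted p = 0.00265 in edgeR's test). All 5 lines had less Hes6 with MYCN on, at -1.80 in G9577 and -0.29, -0.58, -0.71 and -0.08 in the others. The fitted change of -0.67 (SE 0.24) nevertheless missed the threshold (adjusted p = 0.0701), as did the -0.41 without G9577 (adjusted p = 0.0574); DESeq2 called the 5-line change (-0.71, adjusted p = 0.0163). The responses differed by -1.40 (SE 0.31, adjusted p = 0.0453 in edgeR's interaction test), a call lost with RLE scaling (adjusted p = 0.0565), with library size only (0.0628), with limma-voom (0.0804), and without G9351, G9488 or G9529 (0.105, 0.0857 and 0.0774). Summed per kilobase, Hes1, Hes6 and Hey1 came to 184 and 432 in G9577 with MYCN on and off, beside 264 to 424 and 386 to 526 in the others. Hes1 was the largest term of that sum in G9577 and Hes6 in each of the others.

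**Figure D3:**
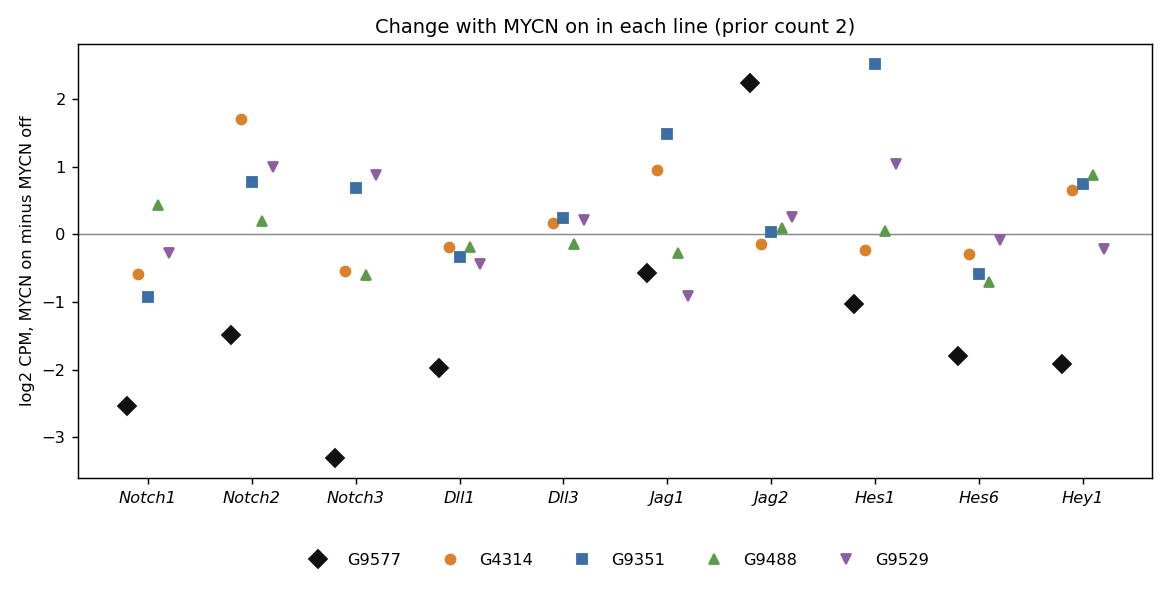
Log2 CPM with MYCN on minus MYCN off for each of the 10 genes (horizontal axis) in each line, computed with a prior count of 2; black diamonds are G9577, and Dll3 has no diamond because it is at 0 counts in both G9577 libraries. The diamond lies below the other 4 lines for Notch1, Notch2, Notch3, Dll1, Hes1, Hes6 and Hey1, and above them for Jag2.

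In all, 7 of the 10 genes passed the threshold between G9577 and the other lines, 4 higher and 3 lower, where 18.1% of 15624 genes did (9.73% higher, 8.38% lower). Both libraries of G9577 lay above all 8 others for 4 of the 10 genes, against 18.0% of all genes, and below them for 4, against 17.2%. The 7 calls stood in each of the 12 alternatives, which gave 7 or 8. For the response, 4 of the 10 genes were called lower in G9577, where 5.38% of all genes were. The 10 genes had a median difference in response of -1.83, beside -0.19 for all genes tested. That median counts Dll3, whose response cannot be estimated from 0 counts in both G9577 libraries. It also counts Dll1, which rests on 0 and 5 counts there.

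Genes with the most similar pattern over the 10 libraries were taken from 10555 genes with a mean of at least 10 CPM, by Pearson's r of log2 CPM. These r describe 10 libraries that share 5 lines, and most of their range is the gap between G9577 and the rest. The genes were picked by r over all 10 libraries. The r without G9577 comes from 8 of the same libraries and is no independent check. For Notch2 the nearest were Flna (r = 0.984), which encodes the actin crosslinker filamin A, Atp2a2 (0.980), a calcium pump, and Asap1 (0.977); without G9577 these were 0.919, 0.883 and 0.841. Flna had 2340 and 4960 CPM in G9577 with MYCN on and off, against 135 to 325 CPM in the other 8 libraries. For Hes1 they were Arpc1b (0.983), a subunit of the actin-nucleating Arp2/3 complex, Snx18 (0.983) and Rab7 (0.970), and without G9577 0.924, 0.915 and 0.769. Hes6 ran with Marveld3 (0.994), a tight junction protein gene, Pclo (0.994), which encodes the presynaptic protein piccolo, and Fbxl16 (0.992), and without G9577 these were 0.872, 0.862 and 0.718. Pclo had 1.30 and 6.79 CPM in G9577, against 276 to 779 CPM elsewhere. For Dll3 they were 8430419L09Rik (0.983), Scrt1 (0.983), a neural zinc finger repressor gene, and Upp1 (0.982), with 0.943, 0.934 and 0.904 without G9577.

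The rest of the pathway was read from a list of 54 further genes, of which 46 could be tested with MYCN on against off. Of these, 12 passed the threshold, 2 higher and 10 lower, a share close to the 31.0% of all genes. Over all genes 15.3% were called higher and 15.6% lower. The median log2 change of the 46 was -0.13 beside -0.08 for all. Among receptors and ligands 1 of 4 tested was called: Dner, a neuronal Notch ligand, was lower with MYCN on. It had 0.559 CPM in G9577 and 242, 262, 300 and 225 CPM in the other lines with MYCN on. In the MYCN-off libraries it had 1.78 CPM in G9577 and 720, 721, 1100 and 764 CPM in the others. The log2 change was -1.67 (SE 0.12, 3.18-fold, adjusted p = 0.00265 in edgeR's quasi-likelihood test), between -1.88 and -1.39 in single lines. Notch4 had a change of -1.01 (SE 0.34, adjusted p = 0.0609) and Dll4 one of 0.60 (SE 0.52, adjusted p = 0.396).

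Of 15 genes that glycosylate or cut the receptors, 1 was higher and 5 were lower with MYCN on. The shares over all genes were 15.3% higher and 15.6% lower. Poglut1, which adds glucose to the receptor's outer part, was higher by 0.54 (SE 0.11, adjusted p = 0.0125 in edgeR's test) and higher in 5 of 5 lines. Furin, the protease of the first cut, was lower by a log2 change of -0.76 (SE 0.13, adjusted p = 0.00714). Lfng, a sugar transferase that tunes ligand choice, changed by -0.48 (SE 0.12, adjusted p = 0.0223), and Ncstn, a subunit of the gamma-secretase that makes the last cut, by -0.54 (SE 0.12, adjusted p = 0.0159). Ncstn shares 149 exon bases with Copa, and reads there were not counted for either. Aph1b and Aph1c, a pair of near-identical gamma-secretase subunit genes whose shared reads were not counted, were lower too, at -1.48 (SE 0.29) and -3.15 (SE 0.62), and are uncertain for that reason; Aph1c held 1 to 26 counts with MYCN on, and its change was -3.93 without G9351 and -2.42 without G9577.

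Of 14 genes for trafficking and turnover 2 were lower, Numb, an inhibitor that sends the receptor to degradation, by -0.78 (SE 0.17, adjusted p = 0.0147 in edgeR's test) and Neurl1a, a ubiquitin ligase for ligands, by -0.51 (SE 0.11, adjusted p = 0.0158). Of 12 tested genes of the nuclear complex and its corepressors, 1 was higher and 2 were lower. Beside both of these lists, 15.3% of all genes were higher and 15.6% lower. Kat2a, a histone acetyltransferase, had 329 CPM in G9577 and 164, 169, 160 and 186 CPM in the others with MYCN on. Off doxycycline it had 90.4 CPM in G9577 and 56.8, 77.9, 90.0 and 70.9 CPM in the others. The change was 1.35 (SE 0.16, adjusted p = 0.0037 in edgeR's test). The corepressor genes Tle1 and Tle2 were lower, by -0.89 (SE 0.17, adjusted p = 0.0105) and -2.21 (SE 0.59, adjusted p = 0.0299); Tle2 stood at 404 CPM in the MYCN-off library of G9577 alone, and its change was -1.60 without that line. Rbpj itself had a change of -0.20 (SE 0.22, adjusted p = 0.502). The only other HES or HEY gene that could be tested, Hes5, had a change of 0.45 (SE 0.52, adjusted p = 0.525). This number of 12 became 7 without G4314 and 6 without G9351. Without either of these lines in turn the calls of Poglut1 (adjusted p = 0.054 and 0.0601), Neurl1a (0.0634 and 0.0617), Ncstn (0.0549 and 0.0591), Lfng (0.0696 and 0.069) and Tle2 (0.0936 and 0.0734) were lost. The call of Numb was lost without G9351 (0.0532) or G9488 (0.0506), and that of Lfng also without G9488 (0.0897). Without G9577 16 pathway genes passed, the same 12 among them.

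**Figure D4:**
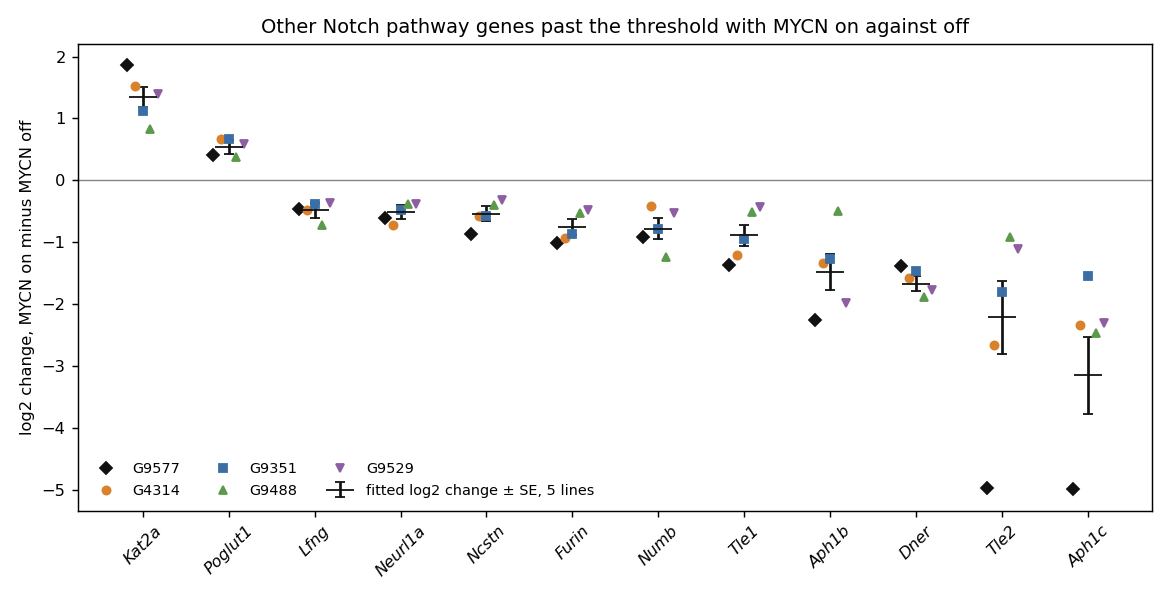
Log2 change with MYCN on against MYCN off for the 12 further pathway genes past the threshold, ordered by size; black bars give the fitted change and its SE over 5 lines, and symbols give single lines. All 5 lines lie on the same side of 0 for each gene, and G9577 falls far below the others for Tle2 and Aph1c.

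Between G9577 and the other lines, 13 of 51 tested pathway genes passed the threshold, 8 higher and 5 lower. Of all genes 18.1% did, 9.73% higher and 8.38% lower. Lower in G9577 were Dner by a log2 difference of -9.04 (SE 0.49, adjusted p = 0.00134 in edgeR's test), Mfng, a second fringe sugar transferase, by -6.73 (SE 0.54, adjusted p = 0.00252), Neurl1a by -5.83 (not called by limma-voom, adjusted p = 0.0602) and Neurl1b by -2.30, as well as Lfng. Mfng had 2.70 CPM with MYCN on, and 0.445 with MYCN off in G9577, against 199, 169, 141 and 237 and 150, 118, 110 and 204 CPM in the others. Higher in G9577 were Adam17, a protease that cuts receptors at the cell surface, by 1.48 (SE 0.21, adjusted p = 0.0107; 0.89 and adjusted p = 0.0668 in MYCN-on libraries alone), and the RBPJ coactivator genes Maml1 by 1.35 (SE 0.2, adjusted p = 0.012) and Maml2 by 7.43 (SE 1.19, adjusted p = 0.0155). Maml2 had 28.9 and 135 CPM in G9577 with MYCN on and off, while no other library exceeded 1.54 CPM; its call was lost without G9529 (adjusted p = 0.0599), and its difference was 8.78 without G4314. Tle2 was higher by 2.56 over both conditions but had a difference of -0.29 in the MYCN-on libraries alone. Maml3, Kat2a, Tle3 and Adam10 made up the rest of the higher genes. Of the 14 nuclear genes 6 were higher, where 9.73% of all genes were. Rbpj differed by -0.08 (SE 0.41, adjusted p = 0.909 in edgeR's test). Dll4, Notch4 and Hes5 had differences of -5.98, -4.53 and -2.51 and missed the threshold (adjusted p = 0.0927, 0.119 and 0.135).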

How the data were processed

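Per the labels' protocols, cells were lysed in TRIzol, mRNA was captured by its poly(A) tail and NEBNext Ultra libraries, which keep no strand, were sequenced. The submitters' processing notes name bcl2fastq 1.8.4, STAR 2.5.2a and the build mm9. The deposited values are raw counts per gene from featureCounts 1.6.0 with UCSC gene models, made without strand, per the file headers. Multi-mapping reads and reads over more than 1 gene were left uncounted, so near-identical genes are counted in part. None of the 10 genes shares exon bases with another listed gene. The counts of Mycn may come from the transgene, whose species the sources used here do not name, or from the mouse gene.

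Computed here with edgeR 4.0.16 in R 4.3.3 were 3 fits on all genes passing filterByExpr (minimum count 10), with TMM scaling, two-sided quasi-likelihood tests, Benjamini-Hochberg adjustment over every gene in the fit and a threshold of 0.05. The first set MYCN on against off with the line as a block (12835 genes, 4 residual degrees of freedom, biological coefficient of variation 28.5%). The second tested whether the response of G9577 differed from that of the other lines (3 degrees of freedom, 21.0%). Its residual spread came from those other lines only. The third compared counts summed per line (15624 genes, 3 degrees of freedom, 53.4%). SE is the log2 change over the square root of F. Single-line changes use a prior count of 2. All 10 genes passed each filter. The labels pair libraries by line: deviations from group means correlated with r of 0.721 to 0.873 within a line and at most 0.273 between lines. The fits were tested on simulated data with a single dispersion for all genes and fits. For the third fit the simulation held no spread between lines, so it cannot show how that test behaves on these lines. Alternatives were RLE scaling, library size only, other filters, DESeq2 1.42.0, limma-voom 3.58.1, no line block, and each line left out.

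The genes, G9577 as the line compared, the pathway list and the marker lists were chosen with earlier results of these data known. Named were all 10 genes; of the pathway list, up to 12 called with MYCN on and up to 8 called in G9577, by smallest p, with Rbpj, Dll4, Notch4 and Hes5 in any case; and the 3 genes most like each of Dll3, Hes1, Hes6 and Notch2. Lfng, Maml3, Kat2a, Tle3 and Adam10 in the comparison of G9577 were named after their values were seen. Promoter sequences are from RefSeq, on a later build than the counts.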

Additional observations from a re-analysis of the deposited data

Results flagged for a closer look

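In 10 cases a library of G9577 stood farther from its group of 5 than a Dixon test at the 95% level allows, a test that flags about 1 in 20 groups by chance. In Notch1 these were 29.1 CPM with MYCN on, and 169 with MYCN off. In Notch2 they were 199 CPM with MYCN on, and 557 with MYCN off, and in Notch3 57.2 CPM with MYCN off. Hes1 gave 216 CPM with MYCN on, and 439 with MYCN off, and Hey1 gave 50.9 and 192 CPM. Hes6 was flagged on the low side, with 56.3 CPM with MYCN off. The neuroendocrine marker sum of these libraries was 224 CPM with MYCN on, and 185 with MYCN off, and its part in these values was not tested. The Dixon rule was applied to the 10 genes only, so its share over all genes is not known. Of all 15624 genes tested between lines, both libraries of G9577 lay above all 8 others for 18.0% and below them for 17.2%.

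The response to MYCN differed between G9577 and the other 4 lines in edgeR's interaction test for Notch2 (log2 difference -2.40), Notch3 (-3.56), Hes6 (-1.40), Hey1 (-2.43) and Jag2 (2.20). The mesenchymal marker sum of G9577 also differed between its libraries, at 4830 CPM with MYCN on, and 20300 with MYCN off, and its part in the response of these genes was not tested.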

How the results depend on the processing

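With 5 lines and 1 line in the G9577 arm, the response test is the least stable. Of 5 genes called there, 4 remained with RLE scaling, 3 with library size only (which moved the median of all genes by 0.119 on the log2 scale) and 0 without the line as a replicate block. Leaving out 1 of the other lines gave 0 (G9351) to 6 (G4314). Over all genes, 898 calls became 1816 with DESeq2, 6 without the block, and 48 (G9351) to 1883 (G4314) without a line. For G9577 against the others 7 or 8 of the 10 genes were called throughout; over all genes 2829 calls became 5053 with DESeq2 and 1412 (G9529) to 3053 without a line. Library size only moved the median of all genes by -0.155 there.

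For MYCN on against off, 0 of 10 genes were called. DESeq2 called 2 and limma-voom 1, beside 5280 and 4467 of all 12835 genes. Leaving out a line gave 0 to 1 of the 10 genes. Without the replicate block 3973 calls over all genes became 274, and 12 pathway calls became 1. Leaving out a line gave 1729 to 4493 calls over all genes and 6 to 16 of the pathway genes. Changes near 0 turned sign. Under limma-voom they were -0.43 for Hes1, -0.45 for Hey1, -0.07 for Jag1 and -0.04 for Notch2. Without the block they were -0.96, -0.97, -0.17 and -0.97. Leaving out a line, they ran from -0.12 to 0.73 for Hes1, -0.15 to 0.53 for Hey1, -0.23 to 0.37 for Jag1, -0.96 to 0.21 for Notch3 and -0.40 to 0 for Rbpj. Between lines, Notch3 gave -0.78 and Tle2 -0.29 in MYCN-on libraries alone, and Rbpj 0.41 in MYCN-off libraries alone and -0.21 to 0.07 without a line. The cause of these turns was not tested. Counts of 0 to 5 limit Dll1 and Dll3 in G9577.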
